A study of Mus musculus with 6 samples.

Results

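Genes that mark the mural cells of blood vessels, that is pericytes and vascular smooth muscle cells, were read in RNA-seq of sorted brain astrocytes from vehicle- and STZ-treated mice. The list held 34 genes, matched by gene symbol, and the 31 with at least 1 read in every sample were tested among the 22337 genes that met the same condition, of 45777 listed. It was divided into 12 pericyte and shared mural genes, 15 contractile smooth muscle genes and 7 actin-myosin genes that many cell types use. Astrocytes were taken as tdTomato-positive cells from dissociated brains of male Aldh1l1-cre/ERT; tdTomato fl/fl mice, in which tamoxifen, given to both groups, activates the red fluorescent protein in cells where the promoter of the astrocyte gene Aldh1l1 is active. The sample labels give the genotype of all samples only as WT. Mice were injected once, at the age of 8 weeks, with streptozotocin (STZ), which destroys the insulin-producing cells of the pancreas, or with citrate buffer as vehicle. Brains were collected 21 days after that injection. Hyperglycemic mice were selected by their fasting blood glucose. Each of the 3 vehicle and 3 STZ samples was a pool of 3 mice, so spread between samples is spread between pools.

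Pericytes wrap capillaries within the vascular basement membrane, and smooth muscle cells form rings around arterioles. Both respond to signals from endothelium and from the endfeet of astrocytes that cover the vessel wall. Smooth muscle contracts when myosin light chain kinase phosphorylates the regulatory light chain of myosin, which then pulls on filaments of smooth muscle actin and tropomyosin. Many contractile genes share a short promoter element, the CArG box, at which serum response factor binds.

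Genes with at least 1 read numbered 25829 to 26459 in the vehicle samples and 26782 to 27469 in the STZ samples, without overlap. The cause of this difference was not tested. Total read counts were 52529048 to 58749115 per sample, and the depth of the groups overlapped. At this depth 3 reads corresponded to 0.0494 to 0.0578 CPM, a limit that covers counting error only. CPM here means read counts scaled to a common, TMM-normalized library size and is used to compare a gene between samples. Levels of different genes are compared only in TPM, which is also divided by transcript length. Vehicle replicate 1 stood apart, with 5487 CPM of the choroid plexus gene Ttr against 15446 and 16529 in the other vehicle samples. The astrocyte markers Aldh1l1, Aqp4 and Slc1a2 had means over 6 samples of 312, 422 and 496 TPM, beside 31.8 TPM for Pdgfrb, 29.1 TPM for Acta2 and 7.97 TPM for Rgs5. Which cells the reads of these genes came from cannot be told in bulk samples, nor can more mural cells be told from more RNA per cell.

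Several, but not all, contractile genes of the actin filament and its motor were higher in STZ samples. In 5 of the 13 tested contractile genes every STZ sample lay above every vehicle sample, beside 8.64% of all tested genes. Tagln, which codes for the actin-binding protein transgelin, was 6.26-fold higher in STZ samples. Acta2, smooth muscle alpha-actin, was 2.45-fold higher, and Myh11, the smooth muscle myosin heavy chain, was 2.69-fold higher. Among the actin-myosin genes of wider use, the regulatory light chain gene Myl9, its kinase gene Mylk and the tropomyosin gene Tpm2 were 2.22-fold, 2.09-fold and 1.89-fold higher. In all 6 of these genes every STZ sample lay above every vehicle sample. Of 11 tested pericyte genes 10 had a positive log2 fold change, among them Higd1b, Rgs5 and Rgs4 at 2.5-fold, 2.03-fold and 1.69-fold, while the receptor gene Pdgfrb was at 0.946 of the vehicle level and overlapped between groups.

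The test decides what can be called from these samples. Calling a gene required both an adjusted p below 0.05 and more than a 1.5-fold difference. By edgeR's quasi-likelihood test with Benjamini-Hochberg adjustment over all tested genes, 0 of the 31 members were called, and 0.0224% of all tested genes were called in either direction. At an unadjusted p under 0.05, the same test had 13 members higher and 1 lower in STZ, where 5.63% of all tested genes were higher and 5.65% lower. By DESeq2, the tool of the study's methods, 10 members were called higher and 0 lower, where 0.654% of all tested genes were called higher and 0.394% lower. In 13 members all STZ samples lay above all vehicle samples, as for 8.64% of all tested genes, and in 1 all lay below, as for 9.85%. The median log2 fold change was 0.50 over the tested pericyte genes, 0.75 over the contractile genes and 0.63 over the actin-myosin genes, beside 0.01 over all tested genes.

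**Figure D1:**
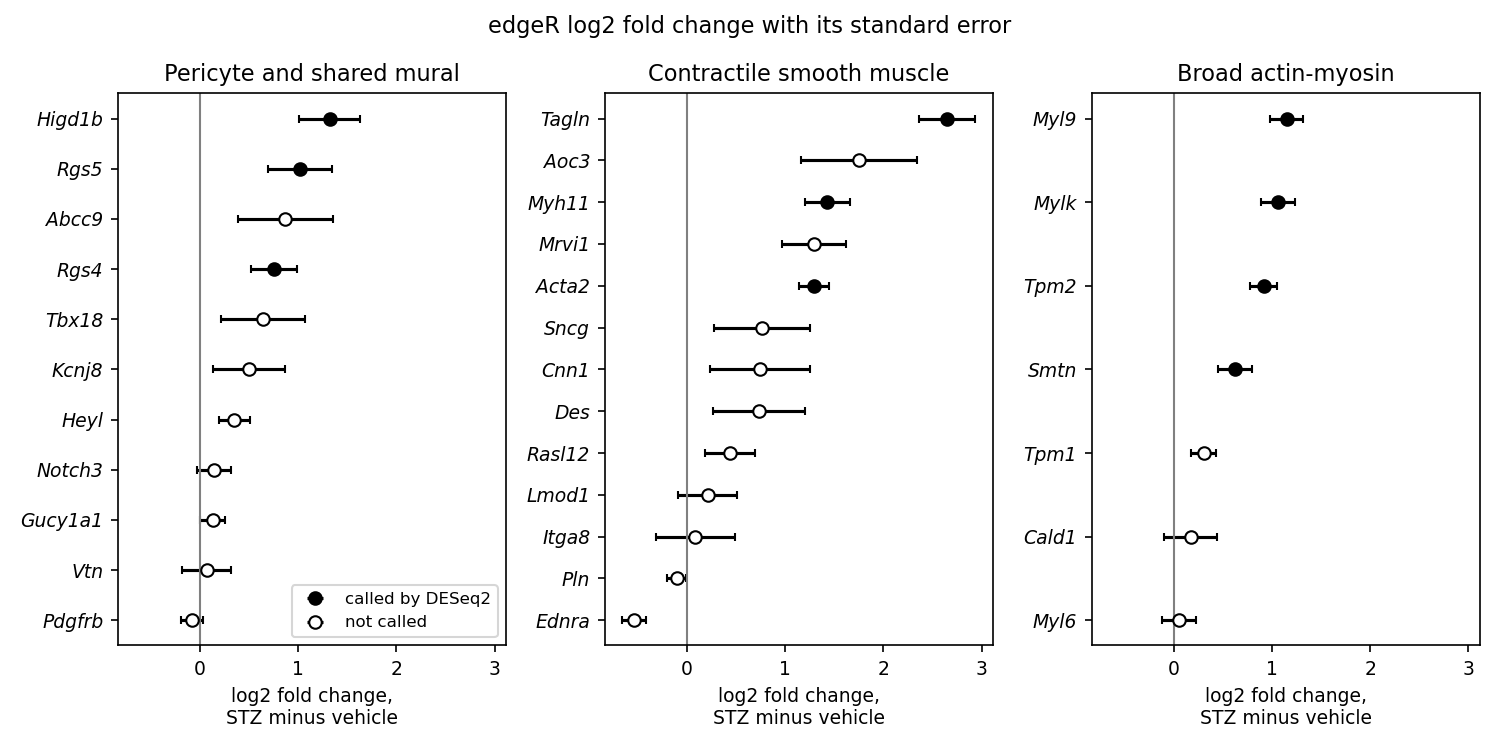
log2 fold change of each tested gene from edgeR, STZ minus vehicle, with its standard error as a bar, 3 samples per group. Filled points are the 10 genes that DESeq2 called, led by Tagln at 2.65, and open points were not called. Ednra lies lowest at -0.53.

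Sequence before the start site is shown for the 2 members among those called by DESeq2 that held a CArG-like element there. RefSeq promoters of GRCm38.p6 were found for 26 of the 34 members, and in each the 250 bases before an annotated start were searched for CC, then 6 letters A or T, then GG, which reads the same way on both strands. An exact match stood in 2 of 30 member promoters, those of Myl9 and Myl6, and in 1.47% of all 32851 promoters of the same length. With 1 other letter allowed within the 6, a match stood in 4 of 30, adding Acta2 and Tbx18, and in 8.59% of all promoters. Pdgfrb, Higd1b, Heyl, Actg2, Tagln, Myh11, Map3k7cl and Aoc3 were not searched. Capitals mark the matches, all sequences run 5′ to 3′, and Acta2 lies on the minus strand.
Acta2 distal element, chr19:34255438-34255467: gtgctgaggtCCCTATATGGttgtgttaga
Acta2 proximal element, chr19:34255388-34255417: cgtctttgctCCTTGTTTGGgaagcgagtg
Myl9 upstream, chr2:156775214-156775407: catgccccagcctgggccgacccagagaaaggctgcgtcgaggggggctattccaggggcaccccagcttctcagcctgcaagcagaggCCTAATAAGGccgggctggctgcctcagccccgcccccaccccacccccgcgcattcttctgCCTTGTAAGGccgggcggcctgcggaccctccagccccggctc
The Acta2 matches began 84 and 34 bases before the start and each holds 1 other letter, and a longer Acta2 transcript of GENCODE M21 has an exon at 34255290 to 34255590 that holds both. In Myl9 the exact match began 161 bases before the start and the second, with 1 other letter, 99 bases before it, and the printed stretch ends where the annotated gene begins. Acta2 and Myl9 did not overlap between groups, while Myl6, which also held an exact match, was at 1.04-fold and overlapped. A match is a description of letters and no evidence that the factor binds.

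Tagln (chromosome 9, 45929628 to 45936058) had 0.597, 0.848 and 1.19 CPM in the vehicle samples and 6.13, 5.0 and 5.41 CPM in the STZ samples. The groups did not overlap, and the lowest STZ sample lay far above the highest vehicle sample. The log2 fold change was 2.65 ± 0.29 (SE), with an adjusted p of 0.0723 by edgeR and 7.27e-17 by DESeq2. Behind it were only 32, 44 and 68 reads in the vehicle samples against 372, 291 and 318. The gene's span overlaps Pcsk7, which had a log2 fold change of -0.01, and since counting is not stated to use strand, reads in the overlap could be assigned to either gene.

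Acta2 (chromosome 19, 34240336 to 34255585) had 15.9, 18.4 and 22.7 CPM with vehicle and 53.5, 40.8 and 45.6 CPM with STZ. All STZ samples were higher, with no overlap. This gave a log2 fold change of 1.30 ± 0.15 (SE), with an adjusted p of 0.098 by edgeR and 1.60e-11 by DESeq2. In length-scaled terms Acta2 was at 16.7 ± 3.33 TPM with vehicle and 41.4 ± 6.41 TPM with STZ (SD, n = 3). No 100-base stretch of its annotated transcripts is shared with another gene in GENCODE M21, so its reads are separable from those of the other actin genes at that length.

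Myh11 (chromosome 16, 14194527 to 14292188) had 3.19, 2.93 and 3.75 CPM with vehicle and 11.5, 7.13 and 7.98 CPM with STZ. STZ replicate 1 was the highest, and the groups did not overlap. Its log2 fold change was 1.43 ± 0.23 (SE), with an adjusted p of 0.163 by edgeR and 7.22e-07 by DESeq2. Mrvi1, which codes for a target of cGMP-dependent protein kinase at the calcium store, had 0.578, 0.617 and 0.751 CPM with vehicle and 2.21, 1.12 and 1.46 CPM with STZ. It was higher in all 3 STZ samples at a log2 fold change of 1.30 ± 0.32 (SE) but was not called by either tool, with an adjusted p of 0.282 by edgeR and 0.0543 by DESeq2. Aoc3, an amine oxidase of the vessel wall, was likewise higher in every STZ sample, at 3.37-fold by edgeR on 3 to 11 reads with vehicle and 15 to 42 with STZ, and DESeq2 gave it no adjusted p.

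Ednra, the endothelin A receptor through which endothelin constricts smooth muscle, went the other way. It had 39.5, 32.4 and 39.3 CPM with vehicle and 22.2, 27.4 and 27.3 CPM with STZ. It was the one member in which all STZ samples lay below all vehicle samples. The log2 fold change was -0.53 ± 0.12 (SE), with an adjusted p of 0.253 by edgeR and 0.0186 by DESeq2, and the fold change stayed short of 1.5. Astrocytes themselves are known to carry endothelin receptors, and the related receptor gene Ednrb, the main astrocyte form, had 1250, 934 and 964 CPM with vehicle and 652, 750 and 900 CPM with STZ, also without overlap (edgeR adjusted p = 0.371).

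The remaining contractile genes did not separate the groups. Pln, the inhibitor of the calcium pump of the sarcoplasmic reticulum, was nearly level, at 20.7 to 24.5 CPM with vehicle and 19.8 to 22.2 CPM with STZ, and its log2 fold change was -0.10 ± 0.10 (SE). Its span overlaps the protein-coding gene Cep85l by 8314 bases, so reads there could be assigned to either gene. Cep85l had a log2 fold change of -0.29 and lay lower in every STZ sample. The intermediate filament gene Des had 0.466, 1.54 and 1.82 CPM with vehicle and 2.61, 2.11 and 1.67 CPM with STZ. Sncg, gamma-synuclein, had 2.20, 9.77 and 9.51 CPM with vehicle and 13.4, 13.8 and 9.29 CPM with STZ. In both genes vehicle replicate 1 was far below the other samples, and the groups overlapped. Cnn1, calponin, had 0.244 to 1.04 CPM with vehicle and 0.791 to 1.05 CPM with STZ. Rasl12, Lmod1 and Itga8 had log2 fold changes of 0.44, 0.21 and 0.09, each with overlap. Actg2, smooth muscle gamma-actin, had 5, 4 and 8 reads with vehicle and 11, 5 and 0 with STZ and was not tested. Map3k7cl had 0, 4 and 0 reads with vehicle and 3, 4 and 5 with STZ and was not tested either.

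Among the actin-myosin genes that non-muscle cells also use, Myl9 (chromosome 2, 156775408 to 156781657) had 15.3, 19.0 and 22.3 CPM with vehicle and 48.9, 41.9 and 35.1 CPM with STZ. The groups did not overlap. The log2 fold change was 1.15 ± 0.17 (SE), with an adjusted p of 0.151 by edgeR and 6.75e-08 by DESeq2. Mylk, the kinase that acts on the Myl9 protein, had 2.69, 3.01 and 2.98 CPM with vehicle and 6.56, 5.46 and 6.09 CPM with STZ, with little spread within either group. Its log2 fold change was 1.06 ± 0.18 (SE), with an adjusted p of 0.169 by edgeR and 2.19e-05 by DESeq2. Tpm2, beta-tropomyosin, had 6.06, 6.78 and 6.79 CPM with vehicle and 13.6, 11.4 and 12.2 CPM with STZ, again apart in every sample. Tpm2 had a log2 fold change of 0.92 ± 0.14 (SE), with an adjusted p of 0.157 by edgeR and 1.94e-06 by DESeq2.

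Smtn, the actin-associated protein smoothelin, had 6.97, 7.23 and 8.92 CPM with vehicle and 13.8, 12 and 9.89 CPM with STZ, and STZ replicate 3 lay closest to the vehicle range. Smtn had a log2 fold change of 0.63 ± 0.18 (SE), with an adjusted p of 0.302 by edgeR and 0.0409 by DESeq2. Tpm1, alpha-tropomyosin, was higher in each STZ sample by a smaller amount, at a log2 fold change of 0.31 ± 0.13 (SE), and neither tool called it. Myl6, the essential light chain of non-muscle and smooth muscle myosin, had 127, 212 and 198 CPM with vehicle and 182, 183 and 192 CPM with STZ. Cald1, caldesmon, had 23.5, 47.7 and 51.6 CPM with vehicle and 52.4, 44.0 and 42.0 CPM with STZ. In both genes only vehicle replicate 1 stood low, and the groups overlapped. Pseudogene transcripts share 3.43% of the 100-base stretches of Myl6, so its level is less certain than that of Myl9.

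**Figure D2:**
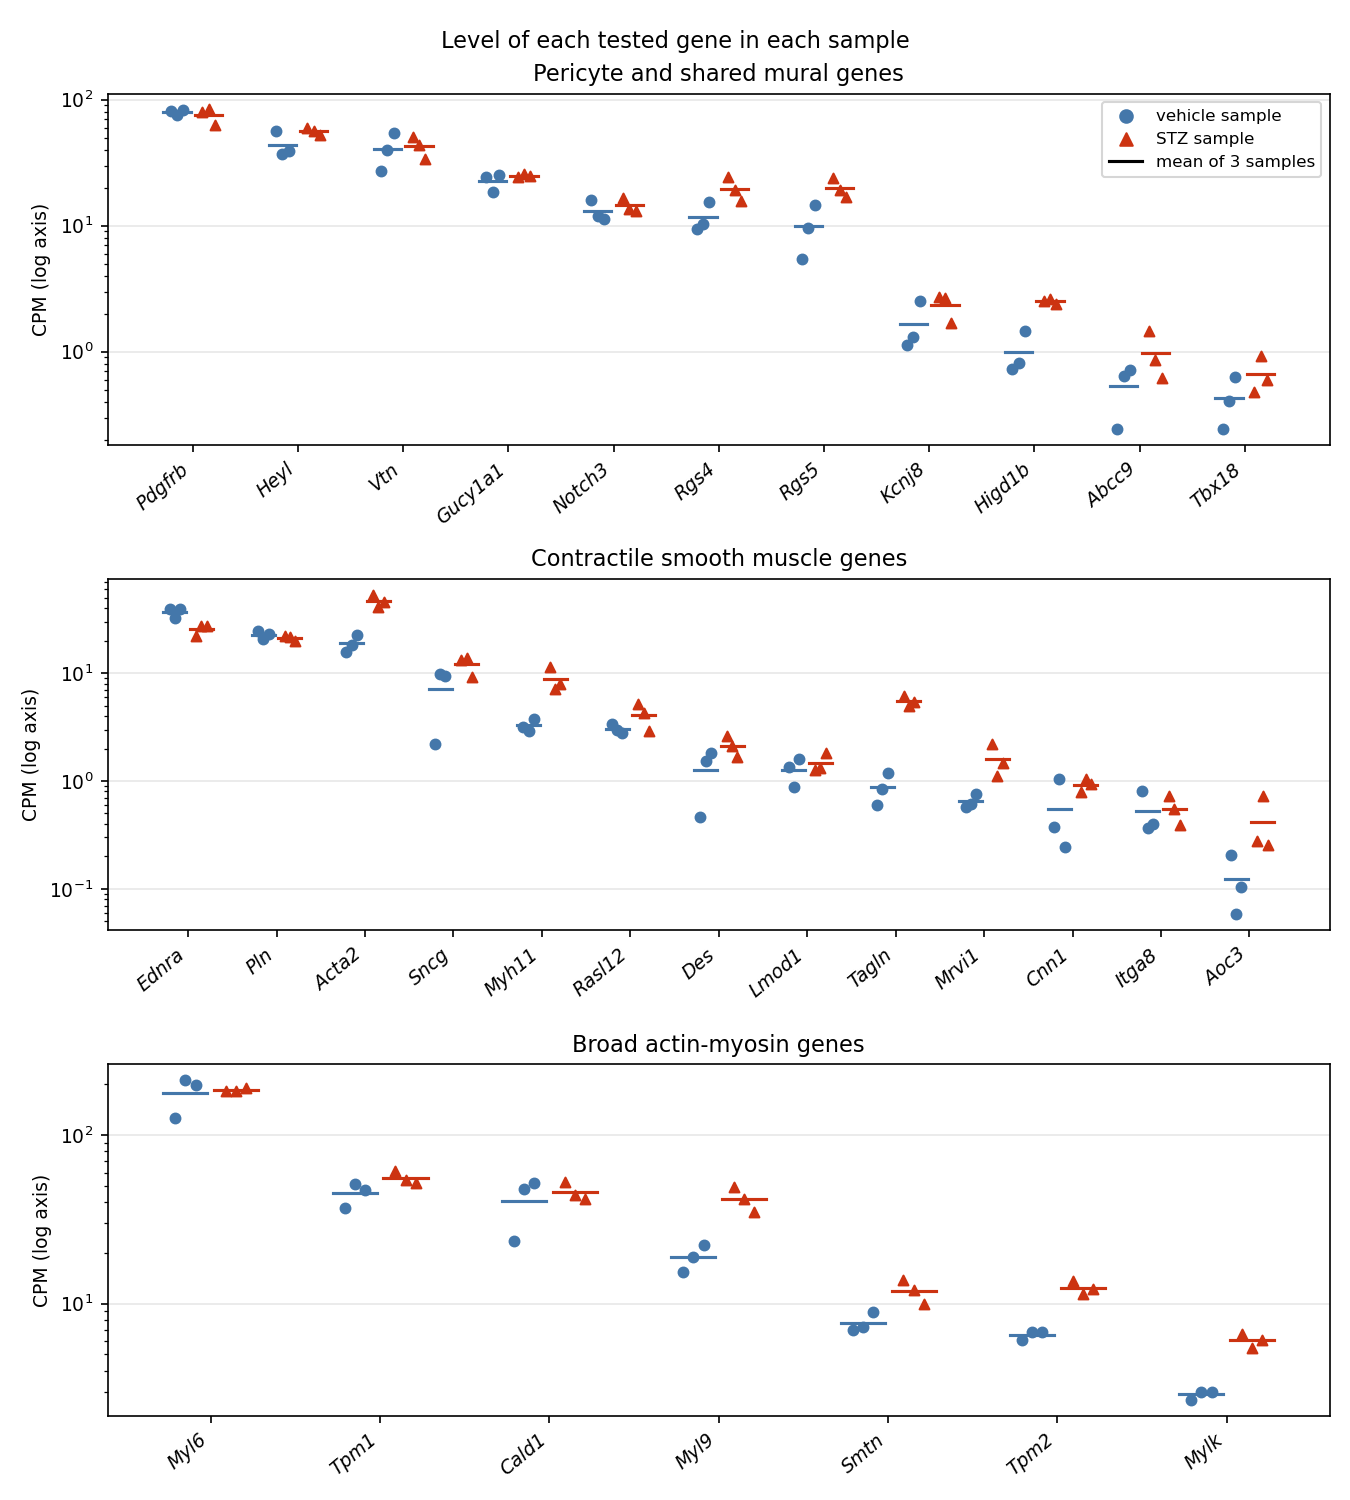
CPM of each of the 31 tested genes in each sample on a log axis, in 3 panels by gene group. Circles are vehicle samples, triangles STZ samples and short bars the mean of 3 samples. Tagln, Acta2, Myh11, Myl9, Mylk and Tpm2 show the groups apart, while Pdgfrb, Vtn, Pln and Myl6 show them mixed.

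The genes with which pericytes are usually identified did not move as one group. Pdgfrb, the receptor by which endothelial PDGF-B recruits pericytes, had 82.0, 75.6 and 82.3 CPM with vehicle and 80.2, 83.6 and 63.0 CPM with STZ. All samples except STZ replicate 3 lay within a narrow range, and the log2 fold change was -0.08 ± 0.11 (SE). Vtn, the matrix protein vitronectin, had 27.1, 39.8 and 54.5 CPM with vehicle and 50.4, 43.5 and 33.8 CPM with STZ, and its spread within groups was wider than the difference between their means. The Notch receptor gene Notch3 and Gucy1a1, a subunit of the nitric oxide receptor guanylate cyclase, had log2 fold changes of 0.15 and 0.13. Heyl, a transcription factor that Notch activates, had 56.2, 36.8 and 39.2 CPM with vehicle and 59.6, 56.7 and 52.5 CPM with STZ, and vehicle replicate 1 fell within the STZ range.

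Higd1b, Rgs5 and Rgs4 were the 3 pericyte genes that DESeq2 called. Higd1b had 0.727, 0.809 and 1.47 CPM with vehicle and 2.52, 2.61 and 2.40 CPM with STZ, at a log2 fold change of 1.32 ± 0.31 (SE). The adjusted p was 0.261 by edgeR and 0.0106 by DESeq2. The span of Higd1b overlaps Eftud2, which had a log2 fold change of 0.04, by 5670 bases. Reads there could be assigned to either gene. Rgs5, which codes for a regulator that shortens G-protein signals, had 5.45, 9.54 and 14.7 CPM with vehicle and 24.0, 19.3 and 16.9 CPM with STZ. Its groups did not overlap, but vehicle replicate 3 came near to STZ replicate 3. The log2 fold change was 1.02 ± 0.33 (SE), with an adjusted p of 0.349 by edgeR and 0.0283 by DESeq2. The neighbouring gene Rgs4 on chromosome 1, of the same family, had 9.36, 10.3 and 15.4 CPM with vehicle and 24.4, 19.0 and 15.7 CPM with STZ. Vehicle replicate 3 and STZ replicate 3 were almost equal. Rgs4 had a log2 fold change of 0.76 ± 0.23 (SE), with an adjusted p of 0.328 by edgeR and 0.0413 by DESeq2.

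Kcnj8 and Abcc9, the pore and the regulatory subunit of the ATP-sensitive potassium channel of mural cells, had log2 fold changes of 0.50 ± 0.36 and 0.87 ± 0.48 (SE). Their vehicle and STZ samples overlapped, as did those of the mural transcription factor gene Tbx18, at 0.64 ± 0.42 (SE). Anpep, aminopeptidase N, had 29, 0 and 36 reads with vehicle and 25, 46 and 8 with STZ, and the 0 in vehicle replicate 2 kept it out of the test.

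Per transcript length, the 31 tested genes ranged from 0.131 TPM for Aoc3 to 553 TPM for Myl6, as means over 6 samples. After Myl6 came Myl9 at 60.9 TPM, Tpm1 at 60.2 TPM and Vtn at 51.6 TPM, but the order of these means depended on the group. With vehicle, Myl9 was at 37.5 ± 5.91 TPM, Tpm1 at 52.4 ± 9.17 TPM and Vtn at 49.9 ± 15.7 TPM (SD, n = 3). With STZ they were at 84.3 ± 15.7, 68.0 ± 8.68 and 53.3 ± 11.3 TPM (SD, n = 3). The pericyte genes Pdgfrb, at 31.8 TPM, and Heyl, at 24.1 TPM, stood above Rgs5 at 7.97 TPM, Kcnj8 at 1.69 TPM and Abcc9 at 0.214 TPM. Kcnj8 and Abcc9, which are widely used to define brain pericytes, thus stood well below Pdgfrb, and Abcc9 was near the bottom of the list. Among contractile genes the order depended on the group. With vehicle, Ednra at 22 ± 2.62 TPM, Sncg at 20.9 ± 12.4 TPM and Pln at 19.9 ± 2.01 TPM stood above Acta2 at 16.7 ± 3.33 TPM (SD, n = 3), within their spread. With STZ Acta2 had the highest mean at 41.4 ± 6.41 TPM, followed by Sncg at 36.3 ± 7.92 TPM (SD, n = 3). These 2 genes overlapped, and in STZ replicate 2 Sncg was above Acta2. The Pln level carries the limit of its overlap with Cep85l. Tagln went from 1.18 ± 0.362 TPM with vehicle to 7.58 ± 0.894 TPM with STZ (SD, n = 3).

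**Figure D3:**
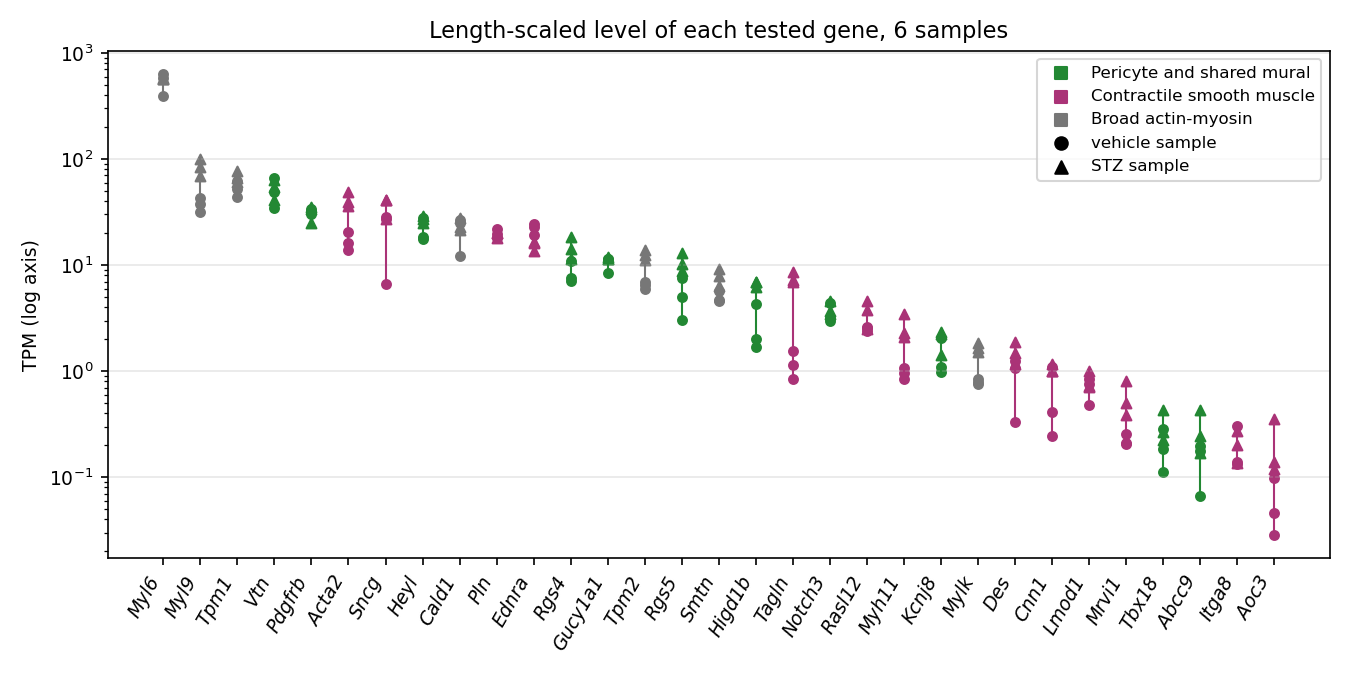
TPM of the 31 tested genes in the 6 samples on a log axis, ordered by their mean. Circles are vehicle samples, triangles STZ samples, colours the 3 gene groups and lines the range over samples. Myl6 is highest at a mean of 553 TPM and Aoc3 lowest at 0.131 TPM.

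The calls by DESeq2 rested in part on single samples. Acta2, Tagln, Myh11, Myl9, Mylk and Tpm2 were called by DESeq2 with each of the 6 samples left out in turn. Without vehicle replicate 2 and without STZ replicate 1, these 6 were the only members called higher, in place of 10. Without vehicle replicate 1, which stood apart, 7 were called, these 6 and Higd1b. Higd1b was called in 3 of the 6 such fits, Rgs4 and Smtn in 2, and Rgs5 in 1, the fit without vehicle replicate 3. Not called with all samples, Mrvi1 was called higher in 2 of these fits and Ednra lower in 3. Without vehicle replicate 3, the median log2 fold change of the pericyte genes was 0.92 in place of 0.50.

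Endothelial markers were also higher in STZ samples. All 18 had a positive log2 fold change, as had 51.9% of all tested genes, and the median was 1.12. At an unadjusted p under 0.05 by edgeR 15 were higher, beside 5.63% of all tested genes. None was called by edgeR, and DESeq2 called 2 higher, beside 0.654% of all tested genes. Cldn5, the tight junction protein of brain endothelium, had 14.3, 19.0 and 50.3 CPM with vehicle and 90.7, 68.9 and 40.8 CPM with STZ. Pecam1 had 3.32 to 10.4 CPM with vehicle and 7.40 to 17.0 CPM with STZ, and Cdh5 0.242 to 0.785 and 1.45 to 1.60 CPM, so none of these defining markers was at 0. Slc2a1, a glucose transporter gene, held most of the reads of this list, and the paper took its mRNA in these samples as that of astrocytes. Without it all 17 genes had a positive log2 fold change, with a median of 1.14. At an unadjusted p under 0.05 by edgeR 14 of them were higher, beside 5.63% of all tested genes. The list without Slc2a1 summed to 122, 178 and 396 CPM with vehicle and to 632, 494 and 368 CPM with STZ. Vehicle replicate 3 therefore reached the level of STZ replicate 3 in the sum of endothelial genes.

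That pair of samples was chosen for its like endothelial sums after the values were seen. Tagln was 1.19 against 5.41 CPM in vehicle replicate 3 and STZ replicate 3, Acta2 22.7 against 45.6 CPM and Myh11 3.75 against 7.98 CPM. Mylk was 2.98 against 6.09 CPM and Tpm2 6.79 against 12.2 CPM. Myl9 was 22.3 against 35.1 CPM and Higd1b 1.47 against 2.40 CPM. Rgs5, at 14.7 against 16.9 CPM, Rgs4, at 15.4 against 15.7 CPM, and Smtn, at 8.92 against 9.89 CPM, were closer. Single endothelial markers differed within the pair in both directions, with Cdh5 at 0.785 against 1.45 CPM and Cldn5 at 50.3 against 40.8 CPM. The comparison sets 1 library against 1 and has no test. The part of endothelial cells in the pericyte and contractile results was not tested.

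**Figure D4:**
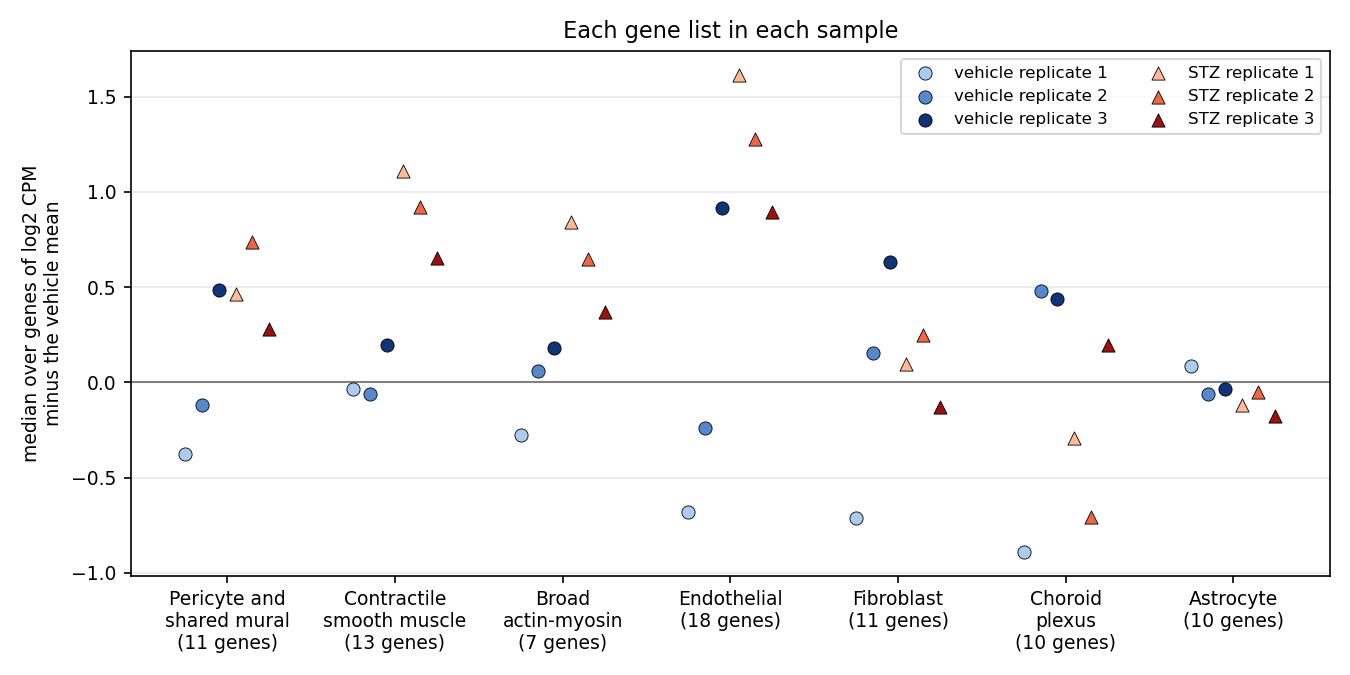
Median over the tested genes of each list of log2 CPM minus that gene's vehicle mean, 1 point per sample, circles for vehicle and triangles for STZ. The contractile and actin-myosin lists show all STZ samples above all vehicle samples, while in the pericyte, endothelial, fibroblast, choroid plexus and astrocyte lists samples of the groups overlap.

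Markers of other cells that a sort could carry went in both directions. Of 11 tested fibroblast genes 6 had a positive log2 fold change, with a median of 0.10, and the collagen genes Col1a1, Col1a2 and Col3a1 had log2 fold changes of -0.11, 0.11 and 0.87. The list summed to 729 to 1166 CPM with vehicle and 686 to 854 CPM with STZ. Most of that sum was Igfbp2, at 638, 942 and 993 CPM with vehicle and 549, 560 and 730 CPM with STZ. Igfbp2 had a mean over 6 samples of 1199 TPM, beside 4.56, 14.8 and 0.759 TPM for Col1a1, Col1a2 and Col3a1. The cells its reads came from were not tested, so the sum is no measure of fibroblasts. Of the 10 choroid plexus genes none was positive, the median was -0.36, and Ttr, Folr1 and Kl had log2 fold changes of -0.15, -0.37 and -0.70, each with overlap. The medians were -0.06 over 10 microglia and macrophage genes, 0.04 over 10 oligodendrocyte genes, 0.07 over 9 neuron genes and -0.11 over 10 astrocyte genes. The microglial markers Cx3cr1, P2ry12 and Tmem119 had log2 fold changes of -0.25, -0.09 and -0.08, and the macrophage receptor gene Mrc1, at 9.85 to 16.8 CPM with vehicle and 5.65 to 8.61 CPM with STZ, was called lower by DESeq2 (adjusted p = 0.0329, edgeR adjusted p = 0.318). The neuron markers Rbfox3, Snap25 and Syt1 had log2 fold changes of -0.43, 0.07 and -0.68, with overlap. Of the oligodendrocyte genes, Mog had a log2 fold change of -0.31. Mbp and Mobp were 3.01-fold and 3.25-fold, but in both STZ replicate 1 alone stood out and the groups overlapped. It had 1620 CPM of Mbp against 160 to 393 CPM in the other samples, and 488 CPM of Mobp against 41.9 to 119 CPM. Of the astrocyte markers, Aldh1l1, Aqp4 and Slc1a2 had log2 fold changes of -0.22 ± 0.08, -0.48 ± 0.12 and -0.11 ± 0.09 (SE), and in each all STZ samples lay below all vehicle samples. Their adjusted p-values were 0.398, 0.28 and 0.667 by edgeR and 0.313, 0.0169 and 0.685 by DESeq2, and none passed the fold threshold. Of the 10 astrocyte markers only these 3 lay lower in all STZ samples, beside 9.85% of all tested genes, and 4 had a positive log2 fold change.

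Further genes of mural cells were read from a list of 25, of which 5 were higher and 1 lower at an unadjusted p under 0.05, beside 5.63% and 5.65% of all tested genes, and their median log2 fold change was 0.32. Ndufa4l2, a mitochondrial protein gene typical of pericytes, had 0.914, 0.867 and 1.80 CPM with vehicle and 3.50, 2.87 and 2.26 CPM with STZ (edgeR adjusted p = 0.302, DESeq2 adjusted p = 0.0282). Mustn1 had 1.77, 1.06 and 1.41 CPM with vehicle and 3.07, 2.59 and 2.77 CPM with STZ (edgeR adjusted p = 0.288, DESeq2 adjusted p = 0.0373), and the groups of both genes did not overlap. The transcription factor gene Ebf1 and Crip1 had log2 fold changes of 0.92 and 0.88. Sod3, extracellular superoxide dismutase, lay lower in every STZ sample at 236 to 254 CPM with vehicle and 176 to 188 CPM with STZ, at a log2 fold change of -0.45 (edgeR adjusted p = 0.163, DESeq2 adjusted p = 0.000398), short of the fold threshold.

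Of 36 tested regulators of contraction, 6 were higher and 2 lower at an unadjusted p under 0.05, where 5.63% and 5.65% of all tested genes were, and the median log2 fold change was 0.08. DESeq2 called 1 of them lower, where it called 0.394% of all tested genes lower. That gene was Adra2a, the alpha-2A adrenergic receptor, at 75.2, 62.6 and 64.8 CPM with vehicle and 39.9, 34.7 and 33.9 CPM with STZ. The groups did not overlap, and the log2 fold change was -0.90 ± 0.10 (SE), with an adjusted p of 0.0723 by edgeR and 3.61e-09 by DESeq2. The tropomyosin gene Tpm4, the serum response factor cofactor gene Mrtfb, the cGMP-dependent kinase gene Prkg1 and the cytoplasmic actin gene Actg1 had log2 fold changes of 0.49, 0.48, 0.79 and 0.21, none of them called.

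Of 29 signals that recruit and hold mural cells, 2 were higher and 1 lower at an unadjusted p under 0.05, about the share of all tested genes (5.63% and 5.65%), and the median log2 fold change was 0.16. Acvrl1 and Tek, both receptors of endothelium, had log2 fold changes of 1.15 and 1.10, and DESeq2 called Acvrl1 (adjusted p = 0.0205, edgeR adjusted p = 0.345). The groups overlapped in Acvrl1, at 11.5 CPM in vehicle replicate 3 and 11.1 CPM in STZ replicate 3. S1pr1, a sphingosine-1-phosphate receptor, had 3693, 3035 and 3092 CPM with vehicle and 2154, 2552 and 2782 CPM with STZ, at a log2 fold change of -0.39 (edgeR adjusted p = 0.371).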

How the data were processed

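RNA-seq of sorted astrocytes was analysed in 3 vehicle and 3 STZ samples, grouped by the sample labels. Reads were trimmed (Trimmomatic 0.38), aligned to mm10 (HISAT2 2.1.0) and assigned to genes (StringTie 2.1.3b) by the authors, per the submitters' processing notes. The deposited read counts are whole numbers and not normalized. The deposited FPKM (not used here) and TPM values are scaled by the authors to transcript length and library. The annotation is not given in the sources used here. The labels name a SMART-Seq library kit, and the study's methods also name a TruSeq kit.

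Testing was restricted to genes counted in all samples and used R 4.3.3 with edgeR 4.0.16 (TMM, quasi-likelihood test, group only, two-sided, Benjamini-Hochberg over all genes). DESeq2 1.42.0, limma 3.58.1 on log2(TPM + 1) and log2(TPM + 0.1), other scalings and filters, robust fitting, the replicate number as a block and leaving out each sample were alternatives. The edgeR likelihood ratio test and the DESeq2 fits with samples left out or with the block were added after seeing the data. Separation of groups used CPM. The fits were tested on simulated data. No pair of samples was alike within sampling noise (a chi-square of 16.0 to 81.4 for each gene on average). The member genes and all lists were chosen with earlier results of these data known. Named were all members, of each further list at most 4 genes per direction by smallest p, and of each marker list the first 3 genes and those beside a result. A marker gene, among the first 3 of its list, is not reported here. Promoters and positions are RefSeq, GRCm38.p6. Figures were drawn with matplotlib in Python.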

Additional observations from a re-analysis of the deposited data

How the results depend on the processing

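The edgeR test called 5 genes of all tested, 10 with robust fitting, 234 with DESeq2, 194 with the likelihood ratio test and 0 with limma on log2(TPM + 1) and log2(TPM + 0.1), and from 0 to 1 with a sample left out. Of the members it called 0, and 1 (Tagln) without the filter on low counts or with filterByExpr, 2 (Tagln and Acta2) with robust fitting, 10 with DESeq2, 8 with the likelihood ratio test, and 0 with any sample left out, with limma on either scale, with DESeq2 size factors or with library size only. At an unadjusted p under 0.05 the members numbered 14, and from 12 to 15 under the alternatives. DESeq2 called 10 members higher, and from 6 to 11 with a sample left out, and 234 genes in all, and from 120 to 695, the highest without vehicle replicate 3. The median of the contractile genes, 0.75, was 0.37 with limma on log2(TPM + 1), on which low genes are compressed, and from 0.53 (without vehicle replicate 1) to 1.05 (without vehicle replicate 2) with a sample left out. That of the pericyte genes, 0.50, was 0.16 with limma on log2(TPM + 1) and ranged from 0.35 to 0.92 with a sample left out, and that of the actin-myosin genes, 0.63, from 0.51 to 0.74 with a sample left out. Library size without TMM moved the median of all genes by 0.06 on the log2 scale. With a sample left out the log2 fold change took both signs for 7 members, none of them called by either test: Pdgfrb from -0.16 to 0.035, Vtn from -0.15 to 0.34, Gucy1a1 from -0.0079 to 0.21, Lmod1 from -0.0010 to 0.39, Itga8 from -0.15 to 0.53, Myl6 from -0.14 to 0.19 and Cald1 from -0.11 to 0.37. The cause of these moves was not tested.

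Vehicle and STZ samples with the same number were different pools, and their deviations from the group means correlated at -0.10, -0.16 and -0.18, so the numbers did not pair them. With the replicate block edgeR called 0 genes and 0 members, and the contractile median was 0.96. With the block DESeq2 called 6 members and 124 genes. No sample correlated best with its own number.

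Most limits lie in the design. With 3 pools per group the edgeR and DESeq2 calls differed widely, and low genes such as Aoc3, Tagln and Mrvi1 rest on few reads. Map3k7cl, Actg2 and Anpep were kept out of the main test by the rule that every sample must hold a read.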
